A study of Rattus norvegicus with 6 samples.

Results

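The genes described here encode the classical cell guidance cues and their receptors: semaphorins, plexins, neuropilins, ephrins, Eph receptors, netrins, Unc5 receptors, Slits and Robos. They were chosen by gene symbol and a minimum count. Differences between groups were no part of the rule, but earlier results of these data were known when it was set. Of 21553 genes with a name in the count table, 61 had a matching symbol, and 58 of these had at least 10 counts over the 6 libraries and are the members. Ephb4, with 15 counts in all, was the member nearest to that minimum, whereas Efna5 with 8, Sema5b with 7 and Ntn5 with 4 lay below it and were left out. The symbol pattern also took Unc50, which encodes a membrane protein of the Golgi apparatus and is no guidance receptor. Its values are given, and it is counted among the 58 unless stated otherwise.

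RNA was sequenced from INS-1 cells, an insulin-secreting line derived from a rat insulinoma, at passages 7 to 15. INS-SMA (n = 3) is the line made to overexpress the gene for alpha smooth muscle actin with a lentivirus, and INS-MOCK (n = 3) carries the genotype label wild type. The labels give no lentiviral treatment for INS-MOCK, and they do not say whether INS-SMA is a clone or a mixed population or which promoter drives the transgene. The replicates are described as biological, with nothing on how separate the cultures were, so the p-values measure the spread between these libraries. The comparison asks which of these genes differ in expression between INS-1 cells with and without the actin transgene.

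Guidance cues were discovered through their part in steering growing axons, and most act by pushing cells apart or by loosening or strengthening their hold on the matrix. Secreted class 3 semaphorins bind neuropilins, which pass the signal on through A-type plexins, while most membrane-bound semaphorins bind plexins directly. Ephrins are themselves anchored in the membrane, so an Eph receptor and its ephrin signal where cells touch, in both directions. Netrins act through Dcc and Unc5 receptors, and Slits through Robo receptors. In pancreatic islets, Eph and ephrin signalling between beta cells is known to bear on insulin release, and Slit and Robo on the arrangement of the endocrine cells.

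Each of the 6 libraries had between 24719503 and 39608609 counts in all, and assembled transcripts without a gene name took 32.7% to 33% of them in INS-MOCK and 35.8% to 36.7% in INS-SMA, so this share was higher in every INS-SMA library. Reads of a member that fell in such rows are missing from its value, so a low value is not proof of low expression, and whether reads moved between named and unnamed rows was not tested. Among the named rows Rhoa, a GTPase gene that most cells express, had a mean of 0.0275 CPM in INS-MOCK and 0.099 CPM in INS-SMA, and where its other reads may lie was not traced. CPM values use library sizes scaled with TMM factors and are not corrected for gene length, so levels are compared between groups and not between genes. The human ACTA2 sequence, the transgene, stood at 5.78 CPM in INS-MOCK and at 51072 CPM in INS-SMA. Of 12 beta cell markers all 12 were tested, 7 were lower in INS-SMA and 0 were higher. The summed level of the 12 was 28000 to 30300 CPM in INS-MOCK and 2310 to 3180 CPM in INS-SMA. Ins1 and Ins2 held most of it, with means of 22960 and 3722 CPM in INS-MOCK and 1505 and 190 CPM in INS-SMA. Pdx1 fell by 1.06 on the log2 scale. Slc2a2 (-0.30), Mafa, Nkx2-2, Ucn3 and Iapp did not pass, and the log2 fold change of Iapp was 2.30. The summed level was 60.4 to 86.5 against 19.7 to 33.3 CPM for 7 named of 8 fibroblast markers and 177 to 189 against 143 to 156 CPM for 6 named of 7 Schwann cell and neuron markers. Among the 3 tested fibroblast markers Thy1 and Pdgfra were lower and Col3a1 was higher in INS-SMA, at 2.84 ± 0.79 against 0.0698 ± 0.063 CPM (SD, n = 3, log2 fold change 5.22, edgeR adjusted p = 0.00224). Among the 5 tested Schwann cell and neuron markers 1 was higher (Tubb3) and 1 lower (Nefl). The summed level was 0 to 0.359 against 0.781 to 1.56 CPM for 4 named of 6 endothelial markers and 0.743 to 2.51 against 3.49 to 4.27 CPM for 4 named of 6 immune markers. Of the endothelial markers 0 were tested, and of the 4 immune markers tested 1 was higher, Ptprc, with 31, 34 and 29 counts in INS-SMA (edgeR adjusted p = 0.00148). Col1a2, Dcn, Lum, Cdh5, Emcn, Ptprc and Sox10 had 0 counts in the INS-MOCK libraries. The part of other cell types in the results below was not tested, and in such bulk libraries fewer cells of a type and less RNA per cell cannot be told apart.

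Guidance genes changed in both directions. Of the 58 members 54 had enough counts to be tested, and in INS-SMA 17 rose and 10 fell (edgeR, threshold 0.05 on the adjusted p). Among all 13363 genes tested, 28.1% rose and 27% fell, 55.1% in all. Of the tested members 50% passed, a share near that of all genes. Their median log2 fold change was 0.13, against 0.03 over all tested genes. Epha3, which had 0 counts in INS-MOCK, was the highest of the members even at its lower bound of 5.49. Setting it to that bound could therefore not move the median. Libraries of the groups did not overlap for 36 of the 54, with 22 higher and 14 lower, where 65.3% of all tested genes did not overlap. Of the 27 called members 20 differed by at least 1 log2 unit, as did 3745 of the 7359 called among all tested genes. The difference between these shares was not tested. With 1 library left out at a time, 12 to 14 members rose and 6 to 9 fell. The fewest in both directions, 12 and 6, came without INS-SMA replicate 2. Over all tested genes the number that passed also dropped, whichever library was left out.

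**Figure D1:**
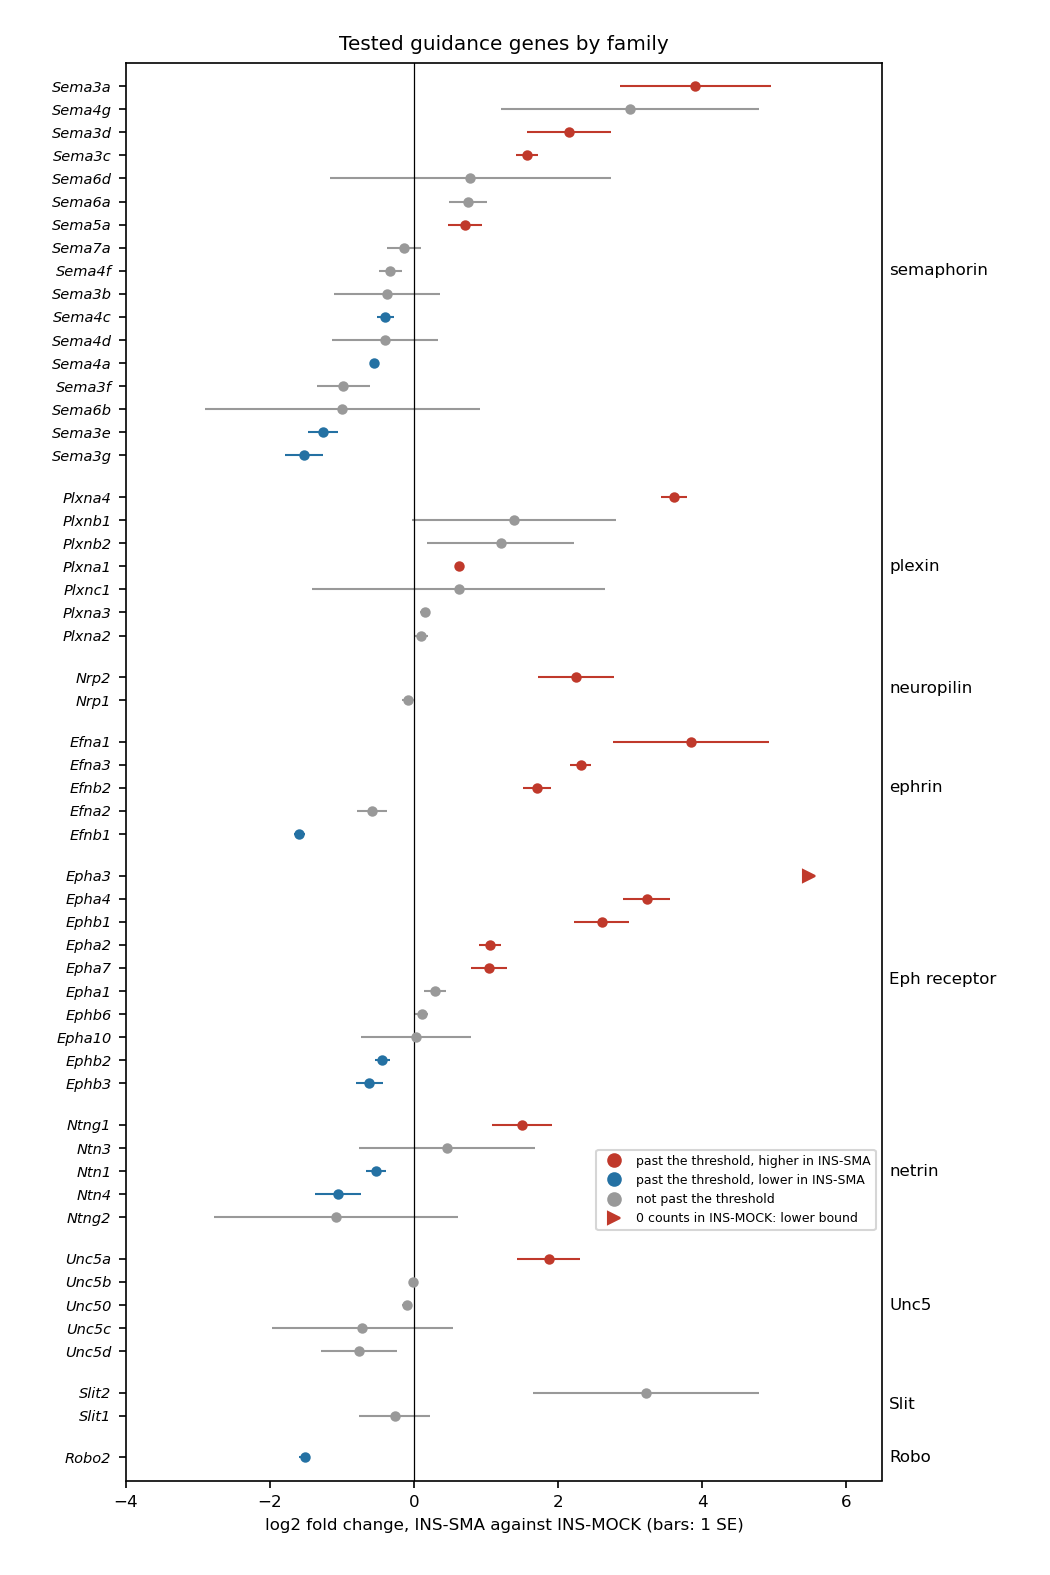
Log2 fold change of the 54 tested members in INS-SMA against INS-MOCK, by family, with bars of 1 SE and colours for edgeR's call; the triangle marks the lower bound of 5.49 for Epha3, which had 0 counts in INS-MOCK. Called genes lie on both sides of 0 in the semaphorin, ephrin, Eph receptor and netrin families, and the 2 called plexins lie above it.

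**Figure D2:**
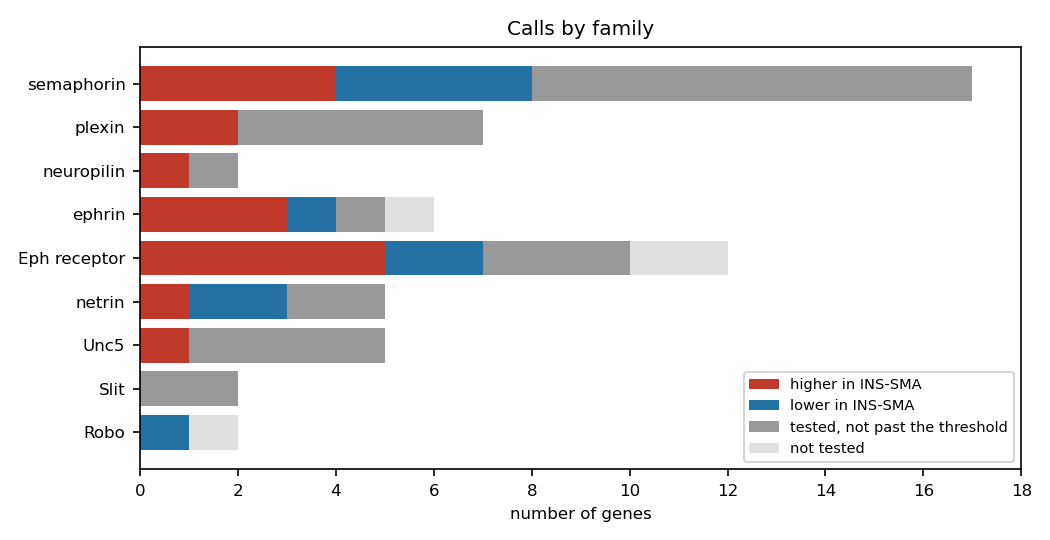
Number of members in each family that rose, fell, did not pass the threshold or were not tested (x axis, genes). Among the Eph receptors 5 rose and 2 fell, among the semaphorins 4 rose and 4 fell, and the Unc5 bar of 5 includes Unc50.

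Ephrins, the membrane-bound ligands of Eph receptors, moved in opposite directions. Of 6 members 5 were tested, and Efna1, Efna3 and Efnb2 rose while Efnb1 fell. Efna3, which encodes a ligand held in the membrane by a lipid anchor, lies on chromosome 2 from 188637852 to 188645196 on the minus strand (ENSRNOG00000057322). It stood at 2.85, 3.27 and 2.69 CPM in INS-MOCK replicates 1 to 3 and at 15.2, 14.8 and 14.0 CPM in INS-SMA replicates 1 to 3. All INS-SMA libraries were above all INS-MOCK libraries, and the log2 fold change was 2.32 (SE 0.15 and adjusted p = 8.03e-05 by edgeR). Efnb2, a ligand that spans the membrane and can signal inward, was at 9.17, 13.1 and 14.7 CPM in INS-MOCK and at 43.3, 39.7 and 38.0 CPM in INS-SMA. Its groups did not overlap either, and the log2 fold change was 1.71 (SE 0.19 and adjusted p = 7.57e-04 by edgeR).

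Efnb1, the other B-type ephrin with enough counts, lies on chromosome X from 68891227 to 68904038 on the plus strand (ENSRNOG00000006877). Its level was 183.6, 178.8 and 184.4 CPM in INS-MOCK and 55.3, 59.7 and 66.2 CPM in INS-SMA. The replicates of each group lay close together, and the fall of 1.59 on the log2 scale had an SE of 0.07 (edgeR adjusted p = 2.65e-05). Efnb1 had the largest fall of all called members. Efna1 was near the floor in INS-MOCK, with 2, 0 and 12 counts, and had 40, 77 and 75 counts in INS-SMA. Its log2 fold change of 3.85 (SE 1.08 and adjusted p = 0.0273 by edgeR) became 5.94 without INS-MOCK replicate 3, and the adjusted p was 0.0589 to 0.0911 without INS-MOCK replicate 1 or any 1 of the INS-SMA libraries. Efna2 was lower in each INS-SMA library than in any INS-MOCK library, at 2.61 ± 0.35 against 3.91 ± 0.49 CPM (SD, n = 3), but did not pass the test (log2 fold change -0.58, edgeR adjusted p = 0.0634; 0.0397 with DESeq2). Efnb3, with 2 to 10 counts in a library, was not tested.

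The sequences just upstream of the transcription start are shown for 5 called members, 3 that rose and 2 that fell, as examples chosen after the values and motif matches were seen. They are the 250 bases before the start in RefSeq's table for the GRCr8 assembly, printed 5′ to 3′ on the strand of the gene, and in these members the stretch lies outside the annotated gene. Ephb1, Sema3d and Ntng1, which also rose, are among those not shown, and Epha2 is shown for its cyclic AMP response element. Capitals mark the motifs that were searched on both strands.
Efna3 (rose), chr2:177035839-177036088, minus strand: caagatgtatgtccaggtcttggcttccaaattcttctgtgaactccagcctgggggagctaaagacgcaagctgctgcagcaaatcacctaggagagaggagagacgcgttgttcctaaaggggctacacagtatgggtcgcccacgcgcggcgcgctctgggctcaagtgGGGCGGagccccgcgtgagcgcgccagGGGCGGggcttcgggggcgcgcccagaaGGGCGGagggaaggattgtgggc
Efnb2 (rose), chr16:87484965-87485214, plus strand: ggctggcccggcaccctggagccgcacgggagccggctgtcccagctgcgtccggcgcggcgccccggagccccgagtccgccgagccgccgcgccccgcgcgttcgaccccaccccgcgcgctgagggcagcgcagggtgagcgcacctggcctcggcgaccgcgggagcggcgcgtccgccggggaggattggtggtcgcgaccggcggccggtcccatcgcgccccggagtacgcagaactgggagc
Epha2 (rose), chr5:158888379-158888628, plus strand: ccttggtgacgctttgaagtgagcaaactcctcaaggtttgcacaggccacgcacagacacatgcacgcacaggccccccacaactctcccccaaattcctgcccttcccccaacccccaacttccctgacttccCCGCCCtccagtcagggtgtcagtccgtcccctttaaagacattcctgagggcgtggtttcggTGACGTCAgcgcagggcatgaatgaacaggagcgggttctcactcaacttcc
Efnb1 (fell), chrX:68297279-68297528, plus strand: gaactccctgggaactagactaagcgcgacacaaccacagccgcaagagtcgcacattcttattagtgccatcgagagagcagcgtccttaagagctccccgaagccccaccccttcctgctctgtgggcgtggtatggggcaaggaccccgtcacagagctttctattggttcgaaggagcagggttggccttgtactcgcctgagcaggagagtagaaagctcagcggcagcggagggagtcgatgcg
Sema3g (fell), chr16:6419775-6420024, plus strand: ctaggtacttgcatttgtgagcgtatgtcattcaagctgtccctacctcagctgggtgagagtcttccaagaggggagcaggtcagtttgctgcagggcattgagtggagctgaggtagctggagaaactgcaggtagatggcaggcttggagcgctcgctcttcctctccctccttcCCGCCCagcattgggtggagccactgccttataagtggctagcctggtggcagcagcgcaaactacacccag

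The motifs were the GC box (GGGCGG), the TATA box (TATAAA), the E-box (CACGTG), the cyclic AMP response element (TGACGTCA), the interferon-stimulated response element, an NF-kappaB site and an ATF4 element (TGATGNAAT). Of the 58 members 43 had a sequence in the table, 12 of them from genes that rose and 9 from genes that fell. The GC box was present in 24 of the 43, or 55.8%, against 30.5% of all 33469 promoters. It was found in 5 of the 12 that rose and in 7 of the 9 that fell, and its copies can overlap each other. The rest of the 24 were among the 22 members that were not called, and a link with direction was not tested. The TATA box stood in 0 of the 43, where 12.9% of all promoters hold it. The interferon-stimulated response element was found upstream of Plxnc1 and Sema6a, which did not pass the test, and of 0 called members, with 3.41% of all promoters holding it. The cyclic AMP response element was found only upstream of Epha2 among the 43, and 1.59% of all promoters hold it. The E-box was found upstream of Ntn3 and Sema3e (5.59% of all promoters), and the NF-kappaB site and the ATF4 element in 0 of the 43 (0.096% and 0.944% of all promoters). Members had a median of 14 CpG dinucleotides in these 250 bases, where all promoters had a median of 5. The median was 15 in genes that rose, 14 in genes that fell and 13.5 in the other 22. The median GC content was 61.6% in members and 51.2% in all promoters. The 33469 promoters were not limited to genes tested or expressed here, so they are a set unlike the members. These are descriptions of letters in a fixed window, and a gene can use other start sites. In many of the 43, such as Efna1, Epha3, Robo2 and Sema4a, the window overlaps the annotated gene.

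Eph receptors, the largest family of receptor tyrosine kinases, mostly rose in the A class and divided in the B class. Of 12 members 10 were tested, 5 rose (Epha2, Epha3, Epha4, Epha7 and Ephb1) and 2 fell (Ephb2 and Ephb3). Of the 6 tested A-type receptors 4 rose and 0 fell. Epha3 (chromosome 11, 421135 to 782954, minus strand, ENSRNOG00000030285) was without a single count in INS-MOCK and had 110, 124 and 131 counts in the INS-SMA libraries. At 5.80 ± 0.76 CPM in INS-SMA (SD, n = 3) it was at least 45.0-fold higher, taking 3 counts in each library as the floor for INS-MOCK (edgeR adjusted p = 3.24e-04). It was the only member with 0 counts throughout a group. Epha4, a receptor that binds ephrins of both classes, was at 0.289, 0.493 and 0.513 CPM in INS-MOCK and at 3.30, 4.77 and 4.2 CPM in INS-SMA. Each INS-SMA library was far above the highest INS-MOCK library (log2 fold change 3.23, SE 0.33, edgeR adjusted p = 5.01e-04).

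Ephb1 showed the same order of levels, at 0.476 ± 0.16 CPM in INS-MOCK and 2.93 ± 0.80 CPM in INS-SMA (log2 fold change 2.61, SE 0.39, edgeR adjusted p = 0.0023). Epha2, a receptor common in epithelia, was present in both groups and rose from 8.96, 7.26 and 9.92 CPM to 19.1, 16.8 and 18.4 CPM. The rise was 1.05 on the log2 scale (SE 0.16 and adjusted p = 0.00226 by edgeR), and the groups did not overlap. Epha7 went from 6.79 ± 0.20 to 14.0 ± 4.25 CPM (log2 fold change 1.04, edgeR adjusted p = 0.0161), with INS-SMA replicate 2 the lowest of its group at 9.50 CPM. The adjusted p was 0.0506 to 0.0576 without any 1 of the INS-MOCK libraries.

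Ephb2 and Ephb3, which encode receptors of B-type ephrins, fell by smaller amounts. Ephb2 went from 26.3, 21.7 and 23.6 CPM to 17.2, 17.9 and 17.7 CPM (log2 fold change -0.44, SE 0.10, edgeR adjusted p = 0.0141). Ephb3 went from 8.76 ± 1.53 to 5.70 ± 0.52 CPM (log2 fold change -0.62, edgeR adjusted p = 0.0389), and its adjusted p was 0.0773 to 0.108 without any 1 library other than INS-MOCK replicate 3. Ephb6, a receptor that lacks kinase activity, was at 22.0 ± 1.14 and 23.7 ± 1.42 CPM and was not called (log2 fold change 0.11, SE 0.09, edgeR adjusted p = 0.371). Epha1 and Epha10 did not pass either, with log2 fold changes of 0.29 and 0.03, and Epha5 and Ephb4 had too few counts to be tested.

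**Figure D3:**
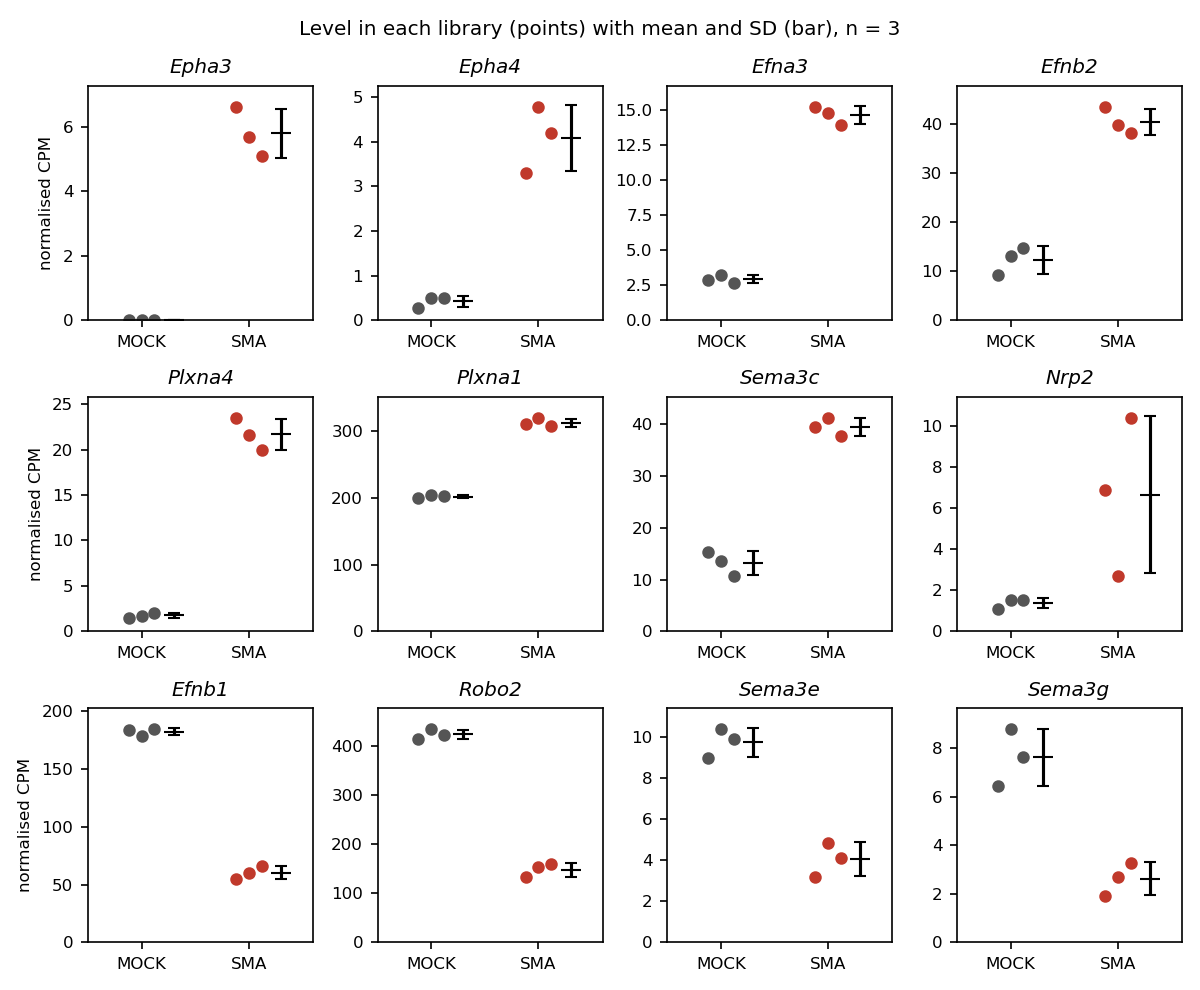
Normalised CPM (y axis, starting at 0, a separate scale for each gene) of 12 called members in each library, with the mean and SD of each group (n = 3). In every panel the INS-SMA points lie on 1 side of the INS-MOCK points, above them for the 8 genes from Epha3 to Nrp2 and below them for Efnb1, Robo2, Sema3e and Sema3g.

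Semaphorins are secreted or membrane-bound ligands named by class, and 17 members were tested, of which 4 rose and 4 fell. The rises were Sema3a, Sema3c, Sema3d and Sema5a, and the falls were Sema3e, Sema3g, Sema4a and Sema4c. The 7 secreted class 3 members thus went both ways, with 3 higher and 2 lower. Sema3c (chromosome 4, 14318274 to 14490446, minus strand, ENSRNOG00000006526) was at 15.4, 13.6 and 10.7 CPM in INS-MOCK and at 39.4, 41.2 and 37.6 CPM in INS-SMA. Its groups were well apart, with a log2 fold change of 1.57 (SE 0.15 and adjusted p = 3.91e-04 by edgeR). Sema3a, the founding repellent of the class, had 12, 12 and 0 counts in INS-MOCK and 72, 124 and 147 in INS-SMA, a log2 fold change of 3.91 (SE 1.05 and adjusted p = 0.0235 by edgeR). Its call needed nearly all libraries, since the adjusted p was 0.0517 to 0.0608 without any 1 library other than INS-MOCK replicate 3. Sema3d went from 1.15 ± 0.59 to 5.11 ± 2.39 CPM (log2 fold change 2.15, adjusted p = 0.0243), and its adjusted p was 0.060 to 0.0774 without replicate 2 or 3 of either group.

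Sema3e, which binds plexin D1 without a neuropilin, was at 8.96, 10.4 and 9.87 CPM in INS-MOCK and at 3.18, 4.82 and 4.12 CPM in INS-SMA. It fell by 1.27 on the log2 scale (SE 0.20 and adjusted p = 0.00327 by edgeR). Sema3g fell by 1.53 (SE 0.27 and adjusted p = 0.00436 by edgeR), from 6.44, 8.79 and 7.65 CPM to 1.92, 2.71 and 3.27 CPM. In both genes the highest INS-SMA library was below the lowest INS-MOCK library. Sema3f was lower in each INS-SMA library as well, at 0.796 ± 0.12 against 1.58 ± 0.59 CPM, but did not pass the test (log2 fold change -0.98, edgeR adjusted p = 0.0683; 0.0219 without INS-MOCK replicate 3). Sema3b had log2 fold change -0.38 with overlapping groups.

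Among the membrane-bound semaphorins, Sema4a (chromosome 2, 187799568 to 187822997, minus strand, ENSRNOG00000019737) fell from 186.3, 183.0 and 203.2 CPM to 131.8, 126.7 and 131.7 CPM. The log2 fold change was -0.55 (SE 0.05 and adjusted p = 3.38e-04 by edgeR). Sema4c went from 32.5 ± 3.43 to 24.6 ± 2.33 CPM (log2 fold change -0.40, edgeR adjusted p = 0.0317), with an adjusted p of 0.0505 to 0.106 without any 1 library other than INS-SMA replicate 1. Sema5a, a semaphorin with thrombospondin repeats, rose by 0.70 with an edgeR adjusted p of 0.0494. That call was lost without any 1 of the 6 libraries, at adjusted p = 0.0658 to 0.13. Sema4f (-0.33), Sema6a (0.75) and Sema7a (-0.14) did not pass, and Sema6a had an adjusted p of 0.0584 that was 0.0256 without INS-SMA replicate 3 and 0.0164 with DESeq2. Sema4d, Sema4g, Sema6b and Sema6d varied so much between replicates that their log2 fold changes, from -0.995 to 3.00, had SEs of 0.74 to 1.95.

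Plexins, the receptors of semaphorins, gave 2 rises and 0 falls among 7 tested members. Plxna4 (chromosome 4, 59445767 to 59809321, minus strand, ENSRNOG00000013072), a receptor for Sema3a and class 6 semaphorins, was at 1.49, 1.75 and 2.05 CPM in INS-MOCK. In INS-SMA it was at 23.4, 21.6 and 19.95 CPM. The lowest INS-SMA library was far above the highest INS-MOCK library, and the log2 fold change of 3.62 (SE 0.18 and adjusted p = 3.4e-05 by edgeR) was the largest among plexins. Plxna1 (chromosome 4, 121217629 to 121257885, minus strand, ENSRNOG00000017003) rose by a smaller amount with little spread, from 199.2, 204.5 and 202.4 CPM to 310.4, 319.2 and 307.5 CPM. Its log2 fold change was 0.63 (SE 0.03 and adjusted p = 3.13e-05 by edgeR). The other A-type plexins were nearly level. Plxna2 was at 20.9 ± 1.58 and 22.4 ± 1.05 CPM (log2 fold change 0.10, SE 0.10), and Plxna3 at 48.7 ± 1.93 and 54.1 ± 2.90 CPM (0.15, SE 0.07). The edgeR adjusted p was 0.418 for Plxna2 and 0.101 for Plxna3, and that of Plxna3 was 0.0302 with DESeq2.

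Plxnb2, a receptor of class 4 semaphorins, had 1 library far from the rest. It stood at 61.4, 49.6 and 62.4 CPM in INS-MOCK, at 31.8 and 30.0 CPM in INS-SMA replicates 1 and 2, and at 337 CPM in INS-SMA replicate 3. With all libraries the log2 fold change was 1.20 (SE 1.02 and adjusted p = 0.368 by edgeR), and without INS-SMA replicate 3 it was -0.90 (edgeR adjusted p = 0.0051), so this library set the direction. Of its 8670 counts there, 8183 lay in a transcript row that had 0, 57 and 0 counts in INS-MOCK and 0 in both other INS-SMA libraries. Plxnb1 and Plxnc1 did not pass, with log2 fold changes of 1.39 and 0.62. Plxnc1 had 290, 0 and 0 counts in INS-MOCK and 87, 124 and 194 in INS-SMA. Without INS-MOCK replicate 1 the remaining INS-MOCK libraries were at 0 and its adjusted p was 8.94e-04.

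Of the neuropilins, co-receptors that bind class 3 semaphorins and forms of VEGF, Nrp2 rose and Nrp1 did not pass the test. Nrp2 was at 1.12, 1.52 and 1.54 CPM in INS-MOCK and at 6.91, 2.71 and 10.4 CPM in INS-SMA. The INS-SMA libraries were all higher but spread widely (log2 fold change 2.26, SE 0.53, edgeR adjusted p = 0.0139; 0.051 without INS-MOCK replicate 1). Nrp1 was at 24.1, 23.0 and 23.4 CPM against 23.4, 21.8 and 21.4 CPM. Its groups overlapped, and the log2 fold change was -0.08 (SE 0.08 and adjusted p = 0.429 by edgeR).

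Netrins are laminin-related cues, and of 5 tested members 1 rose and 2 fell. Ntn1, the founding member of the family, went from 14.9, 13.1 and 12.4 CPM to 8.71, 9.09 and 10.3 CPM (log2 fold change -0.52, SE 0.14, edgeR adjusted p = 0.0221). Ntn4, a basement membrane netrin, went from 5.47 ± 0.76 to 2.63 ± 0.87 CPM (log2 fold change -1.05, edgeR adjusted p = 0.0354). Ntng1, which encodes a netrin-G held in the membrane by a lipid anchor, had 4 to 8 counts in the INS-MOCK libraries and 8 to 25 in the INS-SMA libraries (log2 fold change 1.497, edgeR adjusted p = 0.0257). Each of these calls was lost without single libraries. The adjusted p was 0.0615 to 0.0676 for Ntn1 without replicate 1 of either group or INS-SMA replicate 2, and 0.0547 to 0.0887 for Ntn4 and 0.0685 to 0.081 for Ntng1 without replicate 2 or 3 of either group. With no filter on low counts it was 0.0519 for Ntn4 and 0.0561 for Ntng1. Ntn3 (0.46) and Ntng2 (-1.08) had SEs larger than their log2 fold changes.

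Among the Unc5 receptors, through which netrins repel, Unc5a was the member that rose. It was at 3.01, 2.55 and 1.03 CPM in INS-MOCK and at 8.53, 8.95 and 6.65 CPM in INS-SMA, with a log2 fold change of 1.87 (SE 0.43 and adjusted p = 0.0136 by edgeR). Unc5b was at 115.5, 131.2 and 130.9 CPM in INS-MOCK and at 128.4, 120.5 and 125.4 CPM in INS-SMA. Its groups overlapped, with a log2 fold change of -0.01 (95% interval -0.14 to 0.11, edgeR adjusted p = 0.887). Unc5c (-0.72) and Unc5d (-0.76) did not pass, and Unc5c had 0 counts in INS-SMA replicate 1 against 93 and 58 in the others of its group. Unc50, the gene that only shares the symbol, was at 57.7 ± 1.48 and 54.0 ± 3.92 CPM (log2 fold change -0.10, edgeR adjusted p = 0.301).

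Robo2 (chromosome 11, 11062790 to 11585765, minus strand, ENSRNOG00000029598), a receptor for Slits, fell from 415.6, 434.6 and 423.2 CPM to 132.7, 153.0 and 160.0 CPM. The groups were far apart, and the log2 fold change was -1.51 (SE 0.08 and adjusted p = 3.61e-05 by edgeR). Its counts came from 10 transcript rows, and the most abundant of them, with 5302, 5381 and 5213 counts in INS-MOCK, held 1184, 1453 and 2081 in INS-SMA. Robo1 had 163, 0 and 0 counts in INS-MOCK and 0, 0 and 100 in INS-SMA and was not tested. The ligand gene Slit2 had 28, 0 and 180 counts in INS-MOCK and 760, 454 and 420 in INS-SMA. All INS-SMA libraries were higher, but with this spread in INS-MOCK the log2 fold change of 3.22 (SE 1.57) had an edgeR adjusted p of 0.139, which was 0.0489 without INS-MOCK replicate 3. Slit1 was at 8.87 ± 5.37 and 7.34 ± 1.65 CPM (log2 fold change -0.27, edgeR adjusted p = 0.677).

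Divided by role, with Unc50 left out, 29 ligand genes were tested, of which 8 rose and 7 fell, and 24 receptor genes, of which 9 rose and 3 fell. The median log2 fold change was -0.27 for ligands and 0.46 for receptors, and the difference between these roles was not tested.

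Many members were unsteady between replicates of the same group. In 17 of the 58, the libraries of a group differed by at least 5-fold (counts plus 1), and 13 of these 17 had a library with 0 counts. Among the 54 tested members 15 were of this kind, a higher share than the 14.4% of all tested genes, and the difference was not tested. Of the 15, 2 (Efna1 and Sema3a) passed the test. The spread was taken on counts not scaled for library size. Sema6b was at 2.27, 9.55 and 11.8 CPM in INS-MOCK and at 11.8, 0 and 0.156 CPM in INS-SMA. Its groups overlapped (log2 fold change -0.995, SE 1.91), and the edgeR adjusted p was 0.697 with all libraries and 0.0217 without INS-SMA replicate 1. Sema4g had 0, 58 and 0 counts in INS-MOCK and 153, 133 and 141 in INS-SMA, and its edgeR adjusted p was 0.213, or 0.00169 without INS-MOCK replicate 2. Among the 39 tested members that were steady within both groups, 15 rose and 10 fell, or 64.1% called. Over all 13363 tested genes, 230 of the 1928 unsteady genes passed. Leaving unsteady genes out thus raises the called share of all genes as well. The 64.1% is therefore not to be set against the 55.1% over all tested genes, which includes the unsteady ones.

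**Figure D4:**
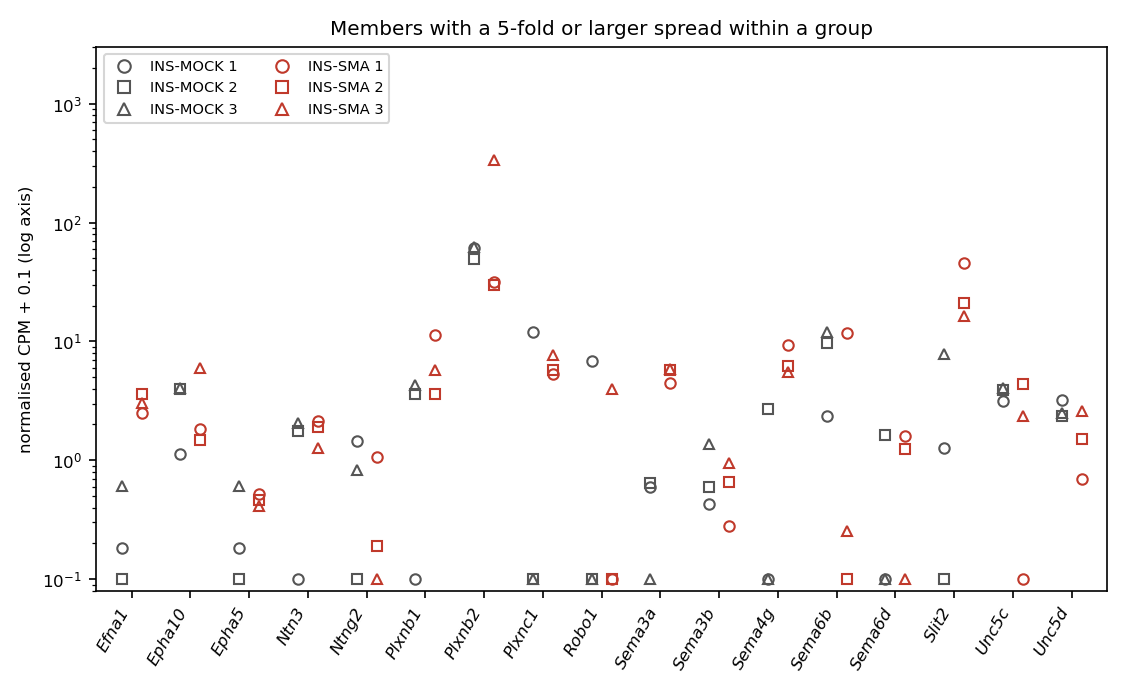
Normalised CPM plus 0.1 (log axis) of the 17 members whose libraries differed by at least 5-fold (counts plus 1) within a group, with grey symbols for INS-MOCK, red for INS-SMA and a shape for each replicate. Points at the bottom are libraries with 0 counts, and for Plxnb2 INS-SMA replicate 3 lies above all other libraries.

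For 26 members the counts were divided over several transcript rows, and in 17 of these the row with the most counts was not the same in all libraries. Plxna1 shows how a gene can be steady while its rows are not. Of its rows, 1 held 4003, 3985 and 4407 counts in INS-MOCK and 4392, 637 and 843 in INS-SMA, whereas the other held 820, 578 and 328 counts in INS-MOCK and 774, 6319 and 7064 in INS-SMA. The sums of 4823, 4563 and 4735 against 5166, 6956 and 7907 counts give the rise of the gene, but its most abundant row alone had a log2 fold change of -0.65 (edgeR adjusted p = 0.621). Sema4a, with 9 rows, behaved likewise within INS-MOCK, where 1 row held 281, 2889 and 3036 counts and another held 3930, 887 and 1406, and the log2 fold change was 0.24 in its most abundant row where the gene fell. In the most abundant row Ephb2, Ephb3 and Sema4c did not pass, although the log2 fold changes there were not smaller, at -0.69 for Ephb2 (edgeR adjusted p = 0.486), -1.17 for Ephb3 (0.472) and -0.72 for Sema4c (0.754). In Epha1, a row with 0 counts in INS-MOCK had 195, 221 and 152 in INS-SMA, while the row that held all 223, 218 and 222 counts in INS-MOCK had 31, 23 and 106. The gene sums of Epha1 were 223, 218 and 222 against 226, 244 and 258 counts, so that its most abundant row fell (log2 fold change -1.95, edgeR adjusted p = 0.0317) while the gene did not pass (0.29, 0.17).

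Some members lie next to each other in the genome, and 11 pairs of neighbouring members were less than 2 Mb apart. Efna1 and Efna3, which both rose, are separated by 41629 bases on chromosome 2, and Sema4a, which fell, lies 765798 bases from Efna1. On chromosome 4, Sema3e, which fell, is followed after 584057 bases by Sema3a and after a further 828274 by Sema3d, which both rose. Sema3b and Sema3f on chromosome 8 lie 76352 bases apart and did not pass the test. Neighbours thus differed in direction as well as sharing it.

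Genes that work with these ligands and receptors inside the cell or beside them at the membrane also changed in both directions. A list of 95 co-receptors, adaptors, GTPase regulators and cytoskeletal effectors had 91 members among the named genes, and 75 were tested. Of these 26 rose and 19 fell, with a median log2 fold change of 0.01, so 60% passed where 55.1% of all tested genes did. The netrin receptor gene Dcc had 0 counts in INS-MOCK and stood at 1.20 ± 0.64 CPM in INS-SMA, at least 9.32-fold higher (edgeR adjusted p = 0.0066). Fyn, a Src-family kinase used by netrin and semaphorin receptors, rose from 151 ± 3.13 to 414 ± 3.53 CPM. The adaptor gene Nck2 rose by 1.44 and the exchange factor genes Arhgef16 and Ngef by 2.44 and 0.88 on the log2 scale. Ngef encodes ephexin, which acts downstream of Eph receptors, and its most abundant row did not pass (1.06, edgeR adjusted p = 0.222).

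Of the 22 tested partners of semaphorin signalling 5 rose and 7 fell. Itgb1, which encodes the beta-1 integrin chain, fell from 489 ± 8.94 to 195 ± 9.60 CPM, and the collapsin response mediator genes Dpysl4 and Dpysl5 fell by 1.16 and 0.46 on the log2 scale. Arhgap35 (0.52), Rras2 (0.64) and Arhgef12 (0.23) were among those that rose, with a log2 fold change of -1.002 in the most abundant row of Arhgef12 and of 0.46 in that of Arhgap35, which did not pass (edgeR adjusted p = 0.0968). Of 10 tested netrin partners 5 rose and 2 fell. Besides Dcc and Fyn, the rises included Trim67 (1.70) and Pitpnm1 (0.38, but -0.47 in its most abundant row), and the falls were Pitpna (-0.93) and Rgmb (-0.70). Of 18 Eph partners 6 rose and 3 fell, the falls being Chn2 (-0.79), Sipa1l1 (-0.85) and Ptpn11 (-0.16). The adjusted p of Chn2 was 0.0675 to 0.0846 without INS-MOCK replicate 1 or 2 or without replicate 2 or 3 of INS-SMA, that of Sipa1l1 0.0544 to 0.145 without any 1 library other than INS-MOCK replicate 1, and that of Ptpn11 0.0539 to 0.0627 without INS-SMA replicate 1 or 2, 0.143 in its most abundant row and 0.159 without normalisation factors.

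Of 18 tested partners of Slit and Robo 7 rose and 4 fell. The GTPase regulator genes Sos1 and Arhgap39, both linked to Robo receptors, rose by 0.66 and 1.71, and the kinase gene Abl1 by 0.51. Cap1, a regulator of actin turnover, fell from 441 ± 8.05 to 239 ± 9.69 CPM, and Sdc1, a heparan sulfate proteoglycan of the cell surface, and Evl, of the Ena/VASP family, fell by 0.97 and 1.06 on the log2 scale. The Ena/VASP family did not move as a whole. Enah rose (0.87, edgeR adjusted p = 0.00641) and Vasp did not pass (-0.29, edgeR adjusted p = 0.0752). Among 7 tested downstream GTPases and effectors 3 rose and 3 fell. Rac1 (-0.73) and Cdc42 (-0.87), small GTPases that drive membrane protrusion, and Cfl1 (-1.18), which encodes the actin-severing protein cofilin, fell. The kinase genes Limk1 (0.94) and Limk2 (1.21), whose products phosphorylate and inactivate cofilin, rose, as did Rock1 (0.19), whose most abundant row did not pass (0.70, edgeR adjusted p = 0.408).

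**Figure D5:**
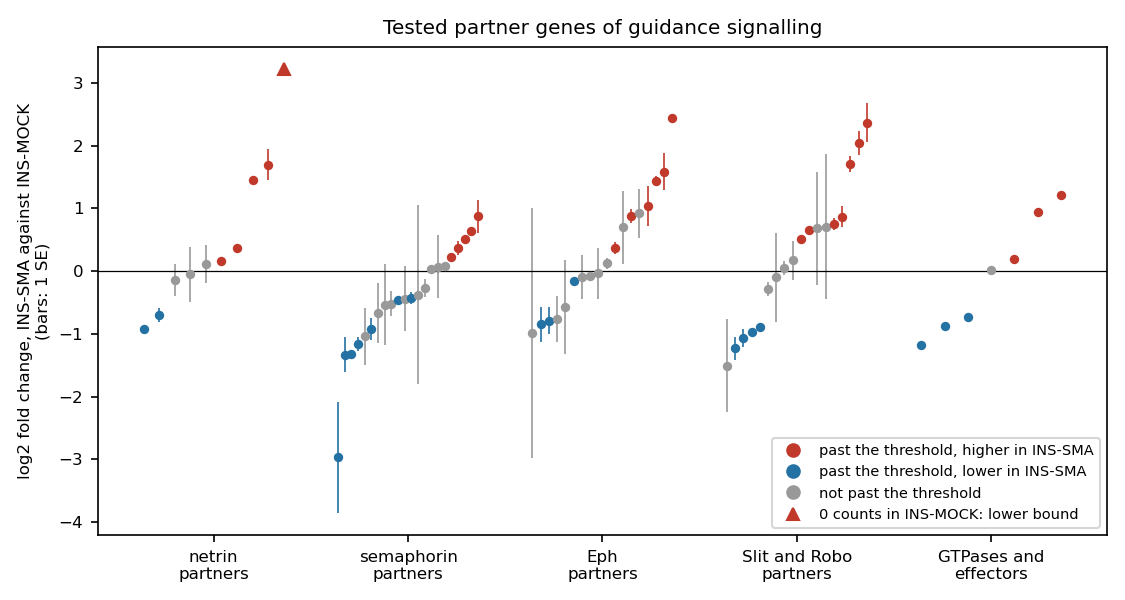
Log2 fold change (y axis, bars of 1 SE) of the 75 tested partner genes in 5 groups, coloured by edgeR's call, with a triangle at the lower bound of 3.22 for Dcc. In each of the 5 groups called genes lie on both sides of 0.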

How the data were processed

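Per the labels, INS-1 cells of 2 groups of 3 libraries were sequenced. The authors deposited raw counts per transcript row, 1 column per library. The submitters' processing notes name HISAT2, HISAT, DESeq2 and the builds rn6 and hg19 without roles; counting program, annotation and strand setting: not given in the sources used here. Coordinates come from the deposited table, which states no build. Counts of the 35604 named rows were summed per gene; the 66301 unnamed rows entered neither the tests nor the library sizes. In R 4.3.3, edgeR 4.0.16 (filterByExpr, TMM factors, glmQLFit and glmQLFTest with group as the only term) tested 13363 genes, with Benjamini-Hochberg adjustment over all of them and a threshold of 0.05. SE is the log2 fold change over the square root of F. A span of 1.96 SE is narrower than a 95% interval of this F-test with so few libraries. For Slit2 it runs from 0.14 to 6.30, although the unadjusted edgeR p is 0.09. No library was a repeat of another: between replicates, chi-square over its degrees of freedom was 46.2 to 59.7. A floor of 3 counts is 0.117 to 0.18 CPM and covers counting error only. Antisense or overlapping genes cannot be told apart where strand is not known.

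The members and lists were chosen with earlier results of these data known. Genes were named by rule: in each family up to 4 called members with the smallest adjusted p and the one with the highest mean CPM, the 3 largest rises and falls, members at 0 in a group, and up to 3 partners per direction and list. Other members, Rhoa, Dcc, Enah, Vasp and the printed promoters were chosen after their values were seen. Alternatives were RLE, upper-quartile or no factors, DESeq2 1.42.0, other count filters, the most abundant row per gene, unnamed rows in library sizes, the transgene left out, a replicate block and each library left out; counts without unsteady members or Unc50 were added after seeing the data.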

Additional observations from a re-analysis of the deposited data

How the results depend on the processing

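The higher and lower counts of members (17 and 10) stayed within 1.5 times under RLE, upper-quartile or no factors, DESeq2, other count filters, unnamed rows in the library sizes and the transgene left out. With the most abundant row per gene in place of the sum, 15 rose and 6 fell. Fewer of all tested genes passed in that setting as well, so the loss of calls was not limited to the members. With 1 library left out, 12 to 14 rose and 6 to 9 fell, with 6 without INS-SMA replicate 2. Calls among all tested genes dropped too, whichever library was left out. Without unsteady members the counts were 15 and 10. Without Unc50 they were 17 and 10, which could not differ because Unc50 was not called. Both settings were chosen after seeing the data. No pairing by replicate number was seen: same-numbered libraries had correlations of -0.0284, -0.013 and -0.0263 between their deviations from the group means. No library correlated best with its own number. Values this near 0 cannot show whether same-numbered cultures were handled together. With a replicate block 11 members rose and 6 fell, Dcc had an adjusted p of 0.0592, and Epha10 turned to -0.031. The block also lowered the number of calls among all tested genes. Of the 27 called members, 13 kept call and direction under all alternatives, 12 lost the call under at least 1, and 2 turned direction in the most abundant row (Plxna1 -0.65 and Sema4a 0.24). The cause was not tested. In the most abundant row the log2 fold change also turned for Epha1 (-1.95), Epha10 (-0.32), Ephb6 (-0.74), Plxna3 (-1.28), Unc50 (0.13), Unc5b (0.22), Pitpnm1 (-0.47), Arhgef12 (-1.002) and Sipa1l1 (0.13). Without factors it turned for Nrp1 (0.0099) and Unc5b (0.081), and for Unc5b also with RLE (0.013) and DESeq2 (0.013). With 1 library left out it ran from -0.91 to 0.37 for Epha10, -0.12 to 1.01 for Ntn3, -0.90 to 1.68 for Plxnb2, -0.90 to 0.38 for Sema3b, -1.14 to 0.15 for Sema4d, -0.25 to 0.043 for Sema7a, -0.62 to 0.29 for Slit1 and -0.065 to 0.018 for Unc5b. Of the 27 tested members that were not called, 8 passed the threshold with the sign unchanged under at least 1 alternative. Epha1 and Plxnb2 passed with the sign turned. This was in the most abundant row for Epha1 (-1.95, edgeR adjusted p = 0.0317) and without INS-SMA replicate 3 for Plxnb2 (-0.90, 0.0051). Members with few counts, such as Ephb4 and Efnb3, allow no comparison at this depth.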
